A study of Saccharomyces cerevisiae with 6 samples.

Results

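The mitochondrial ribosomal protein genes of budding yeast were taken as every gene of the count table whose symbol is MRPL, MRPS, RSM or MRP followed by a number only, with MRP8 left out. This rule gave 66 of the 6461 genes in the table: 34 MRPL genes for the large subunit, 20 MRPS and RSM genes for the small subunit, and 12 MRP genes, whose products belong to either subunit. By the subunit in which the protein sits, 38 members are large and 28 are small, and 41 are homologues of bacterial ribosomal proteins while 25 are particular to mitochondrial ribosomes. The members lie on 14 chromosomes, and 1 of them, MRPL44, has an intron.

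Total RNA was measured by 3′-Tag-seq (QuantSeq), which sequences mRNAs next to their poly(A) tails, in 2 biological replicates at each of 3 temperatures. The groups were cells grown in YPD at 25°C, cells grown in YPD at 30°C, and cells grown at 25°C, mixed with the same volume of pre-warmed medium and kept for 2 h at 37°C. All groups share the BY4741/2 background and a genotype with CBP80-PPX-PrA (a protein A tag on the large subunit of the nuclear cap-binding complex) and SNAPf-YRA1 (a SNAP tag on an mRNA export adaptor). The 37°C cultures received fresh medium at the shift, so temperature and medium cannot be told apart.

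Mitochondria carry their own ribosomes, which translate the few proteins encoded by the mitochondrial genome, most of them subunits of the respiratory chain and of ATP synthase. Nearly all proteins of these ribosomes are encoded in the nucleus, made in the cytosol and imported, so their mRNAs are measured here as ordinary polyadenylated mRNAs. In yeast many of these mRNAs are bound by Puf3, a Pumilio-family protein that recognises a short element in the 3′ untranslated region and is known for control of mRNAs with mitochondrial functions.

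The element shared by the members was sought as TGTANATA on the sense strand within 200 bases after the stop codon, in the RefSeq R64 genome, which is the build of the files. Of the 66 members, 65 held it (98.5%), against 779 of the 5924 other nuclear coding genes (13.1%). The only member without a match was RSM22. The sites of 7 members that are described below are shown with 8 bases on each side, 5′ to 3′, the element in capitals and the mRNA strand given.
MRPL35 (chrIV:1111713-1111736, + strand): tagtatccTGTACATAtaaaataa
MRPL37 (chrII:741641-741664, + strand): ggtatcctTGTAAATAaatatgtg
RSM27 (chrVII:922550-922573, + strand): tcatttcaTGTACATAcaaaatca
RSM18 (chrV:253889-253912, - strand): gttctgtcTGTAAATAtacaatat
MRP13 (chrVII:647067-647090, - strand): aacataccTGTAAATActaaaaag
MRP49 (chrXI:133681-133704, - strand): tttgttcaTGTATATAtcaaaaaa
MRP21 (chrII:49404-49427, + strand): tccgtcttTGTAAATAggtaatgc
These sites begin between 25 and 67 bases after the stop codon and differ at the free position of the element, and they extend to CNTGTANATA in every one of these genes but RSM18 and MRP21.

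All 34 MRPL genes, 19 of the 20 MRPS and RSM genes and all 12 MRP genes held the element, and 13 members held it more than once. Over the 79 sites, the free base N was A in 36, T in 25, C in 17 and G in 1, the last in MRPL3. The longer form CNTGTANATA was found in 52 members (78.8%) and in 3.39% of the other nuclear coding genes. On the antisense strand of the same windows the element was found in 12 members (18.2%) and in 13.2% of the other genes. The first element of a member began at a median of 51 bases after the stop codon (quartiles 33 and 74), against a median of 60 bases in the other genes that have one. A letter match describes the sequence only, and binding was not measured here.

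**Figure D1:**
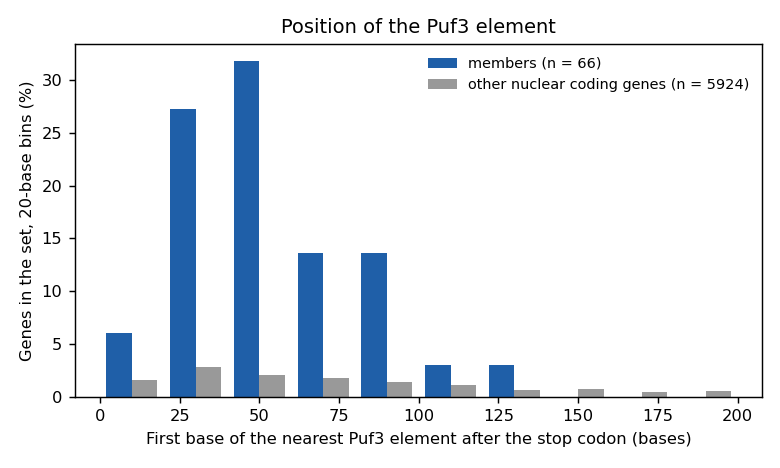
Position of the first Puf3 element (TGTANATA, sense strand), in bases after the stop codon, as the percent of genes in each set that fall in each 20-base bin, for the 66 members and the 5924 other nuclear coding genes. In 57 members the first element began between 21 and 100 bases after the stop codon, and 1 member has no bar because no element was found.

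Other genes of mitochondrial translation held the element to differing degrees. It was found in all 13 of the other mitochondrial ribosomal proteins whose symbols fall outside the rule, such as YML6 and MRX14, and in all 13 mitochondrial tRNA synthetases. It was found in 7 of 11 mitochondrial translation factors, 6 of 9 ribosome assembly and mitochondrial transcription factors and 14 of 18 translational activators and membrane partners. Only 5 of 35 nuclear respiratory chain and ATP synthase genes (14.3%) and 6 of 138 cytosolic ribosomal protein genes (4.35%) held it. The promoters were taken from 250 bases before to 50 after the start codon. AATTTT, the letters of the rapid growth element, was sought there on either strand. It was found in 28 members (42.4%) and in 51.8% of the other nuclear coding genes.

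Gene counts per library were 184456 and 884443 in 25°C cells, 1006632 and 694502 in 30°C cells, and 842298 and 954950 in 37°C cells. The first 25°C library was the shallowest, and across all 5181 tested genes the replicates correlated at r = 0.813 at 25°C, 0.904 at 30°C and 0.974 at 37°C on log2 CPM, where CPM is a count scaled to a library total of 1e6. Reads count for a gene only where they meet its annotated coding region, so an mRNA with a long 3′ untranslated region can lose reads.

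All 66 members had a count in at least 1 library, and 64 passed the filter on low counts (33 MRPL, 19 MRPS and RSM, 12 MRP). The 2 that did not were MRPL4, a large-subunit protein of the uL29 family, and MRPS12, the homologue of the decoding-centre protein S12. MRPL4 had 1 and 2 counts in 25°C cells, 0 and 0 in 30°C cells, and 2 and 2 in 37°C cells. MRPS12 had 1 and 8 counts in 25°C cells, 4 and 4 in 30°C cells, and 7 and 4 in 37°C cells. Both had 8 or fewer counts in every library, where 3 counts equal 16.3 CPM of all gene counts in the first 25°C library and 2.98 to 4.32 in the others. In that first 25°C library 7 members had no count and 23 had 3 or fewer. In the other 5 libraries at most 1 member had no count and at most 5 had 3 or fewer.

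Levels spanned a wide range between members. They are given as CPM normalised by TMM factors, divided by coding length in kilobases, averaged over the 6 libraries. Since tags are counted near the poly(A) tail, this division raises members with a short coding region. On this scale MRPS16, the small-subunit homologue of bacterial S16, had the highest level at 1151, followed by MRPL37, a mitochondria-specific protein of the large subunit, at 1101. Next came MRPL36, the homologue of bacterial L31, at 767.8, MRPL39, the homologue of bacterial L33, at 648.7, and RSM27, a mitochondria-specific small-subunit protein, at 482.5. Without the division, mean CPM was highest in MRPS16 (421), followed by MRPL36 (410), MRPL37 (350) and MRP7 (347). RSM27 was then at 161 and MRPL39 at 138. Divided by length, the median member was at 173.7 among MRPL genes, 119.1 among MRPS and RSM genes and 41.8 among MRP genes. The MRP genes rest on the fewest counts, with a median of 126.5 counts over the 6 libraries together. The distance of the first Puf3 element from the stop codon and the mean log2 CPM, here not divided by length, had a Spearman's rho of 0.0047 across 65 members, which share the same libraries. The median of mean CPM was 87.5 in the 33 members whose first element lay within the median distance and 62.5 in the 32 with a farther one.

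As a share of all gene counts, the members took 0.499% and 0.637% in 25°C cells, 0.603% and 0.632% in 30°C cells, and 0.698% and 0.738% in 37°C cells. The 37°C libraries did not overlap with the others on this scale. The Wilson 95% interval, which covers counting error only, ran from 0.468% to 0.533% in the first 25°C library and was narrower in the others. After scaling by TMM factors, which allow for a shift in the bulk of genes, the summed CPM of the members was 5414 and 6671 in 25°C cells, 6845 and 6212 in 30°C cells, and 6270 and 6605 in 37°C cells. On this scale the 3 temperatures overlapped. The order of the temperatures therefore depends on the scaling. Cytosolic ribosomal protein genes, the most abundant large class, took 9.62% and 17.2% of gene counts in 25°C cells, 22.2% and 13.4% in 30°C cells, and 11.4% and 12.1% in 37°C cells. With those genes left out of the total, the members took 0.552% and 0.770% in 25°C cells, 0.775% and 0.730% in 30°C cells, and 0.789% and 0.839% in 37°C cells.

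The proportion of the subunits was compared in each library. Counts of MRPL genes over counts of MRPS and RSM genes stood at 1.32 and 1.81 in 25°C cells, 1.84 and 1.80 in 30°C cells, and 1.88 and 1.93 in 37°C cells. The first 25°C library, with the fewest counts, had the low value, and the other 5 lay between 1.80 and 1.93. With all members assigned by the subunit in which they sit, large over small was 1.37 and 1.73 in 25°C cells, 1.58 and 1.74 in 30°C cells, and 1.75 and 1.74 in 37°C cells, so that the first 30°C library was low as well. Homologues of bacterial proteins over mitochondria-specific proteins ran from 1.62 in the first 25°C library to 1.85 in the first 37°C library.

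**Figure D2:**
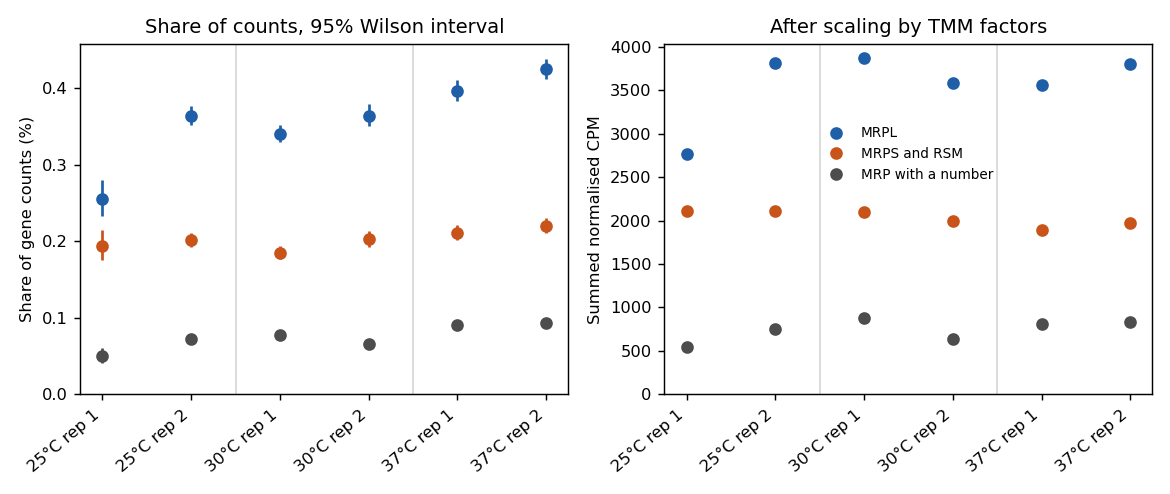
Summed level of the MRPL, the MRPS and RSM, and the numbered MRP genes in each of the 6 libraries, left as the percent of gene counts with its Wilson 95% interval (counting error only), right as summed CPM after TMM scaling. The share of MRPL genes was 0.397% and 0.424% at 37°C, above the other 4 libraries. On the TMM scale the first 25°C library was the lowest for MRPL genes, at 2769 against 3562 to 3865 CPM in the other 5. It was also the lowest for MRP genes, at 541 against 641 to 878 CPM. For MRPS and RSM genes it lay within the range of the others, at 2105 against 1895 to 2107 CPM.

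The first question the design puts is how these mRNAs stood after 2 h at 37°C, against growth at 25°C. A gene was called where its adjusted p was under 0.05 with a log2 fold change beyond 1 in either direction. None of the 64 tested members was called by edgeR with Benjamini-Hochberg adjustment, where 0 of 5181 genes (0.0%) were called, and the smallest adjusted p of a member in edgeR was 0.364. At an unadjusted p below 0.05, edgeR passed 1 member, MRP13, against 13.5% of all tested genes. limma-voom called no member either (0 of 5181 genes, 0.0%). DESeq2 called none of the 7 members that kept an adjusted p, while it called 34 of 1465 genes (2.32%). Without the second 25°C library, edgeR called 3 members, MRPL36, RSM27 and MRPL9, where 364 genes were called. That fit tested 5326 genes. Without the first 25°C library instead, MRPL36 had a log2 fold change of 0.14 and RSM27 one of -0.22.

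The median log2 fold change of the members, 37°C against 25°C, was 0.19, against 0.09 over all tested genes, with 43 members above 0 and 21 below. The members ranged from -0.92 for RSM27 to 1.81 for MRP49. By symbol, the median was 0.17 for MRPL genes, 0.07 for MRPS and RSM genes and 1.12 for MRP genes. Without the first 25°C library the median of the members was -0.07, with 25 of 64 above 0, and that of the MRP genes 0.57. The groups did not overlap for 18 members that were higher at 37°C (28.1%, against 29.4% of all tested genes) and 8 that were lower (12.5%, against 23.2%). In 55 members the log2 fold change lay between -1 and 1 (83.9% of all tested genes did), and in 14 the 95% interval itself stayed within 2-fold (12.5% of all tested genes).

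Among large-subunit members, MRPL35, a mitochondria-specific protein, had 61.8 and 92.8 CPM at 37°C, against 5.88 and 45.0 CPM at 25°C. The groups did not overlap, and the first 25°C value rests on 1 count. Its log2 fold change was 1.23 (SE 0.59, adjusted p = 0.405 in edgeR with Benjamini-Hochberg adjustment). MRPL36 had 446 and 525 CPM at 37°C, against 118 and 430 CPM at 25°C, a log2 fold change of 0.78 (SE 0.55). Its groups did not overlap, but the second 25°C library lay next to the 37°C range. MRPL1, of the family of the bacterial L1 stalk protein, had 164 and 140 CPM at 37°C, against 259 and 167 CPM at 25°C, a log2 fold change of -0.45 (SE 0.33). MRPL44, a mitochondria-specific protein, had 84.2 and 77.8 CPM at 37°C, against 141 and 90.0 CPM at 25°C, a log2 fold change of -0.45 (SE 0.37). In MRPL1 and MRPL44 the groups were apart by less than the distance between the 25°C replicates.

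Among small-subunit members, RSM27 had 115 and 124 CPM at 37°C, against 335 and 136 CPM at 25°C. The groups did not overlap, and the distance between the 25°C replicates was larger than that between the second 25°C library and the 37°C libraries. Its log2 fold change was -0.92 (SE 0.46, adjusted p = 0.425 in edgeR with Benjamini-Hochberg adjustment). MRPS16 had 355 and 327 CPM at 37°C, against 623 and 413 CPM at 25°C, a log2 fold change of -0.59 (SE 0.36). RSM7, the homologue of bacterial S7, had 88.5 and 116 CPM at 37°C, against 58.8 and 81.7 CPM at 25°C, a log2 fold change of 0.49 (SE 0.34). RSM18, the homologue of bacterial S18, had 78.9 and 65.7 CPM at 37°C, against 47.0 and 59.2 CPM at 25°C, a log2 fold change of 0.39 (SE 0.34). None of these 3 passed the test, and in each the 37°C and 25°C libraries did not overlap.

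Among the MRP genes, MRP13, a mitochondria-specific small-subunit protein, had 27.7 and 38.5 CPM at 37°C, against 5.88 and 17.8 CPM at 25°C. The groups did not overlap, and the counts were 26 and 41 at 37°C, against 1 and 15 at 25°C. Its log2 fold change was 1.16 (SE 0.49, 95% interval 0.01 to 2.31, adjusted p = 0.364 in edgeR with Benjamini-Hochberg adjustment). MRP49, a mitochondria-specific large-subunit protein, had 12 and 29 counts at 37°C, against 0 and 6 counts at 25°C. Its groups did not overlap either, and its log2 fold change was 1.81 (SE 0.84, adjusted p = 0.393 in edgeR with Benjamini-Hochberg adjustment). Of the 12 MRP genes, 9 had 3 or fewer counts in the first 25°C library and none in the second, and the part of that depth in their high median was not tested.

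**Figure D3:**
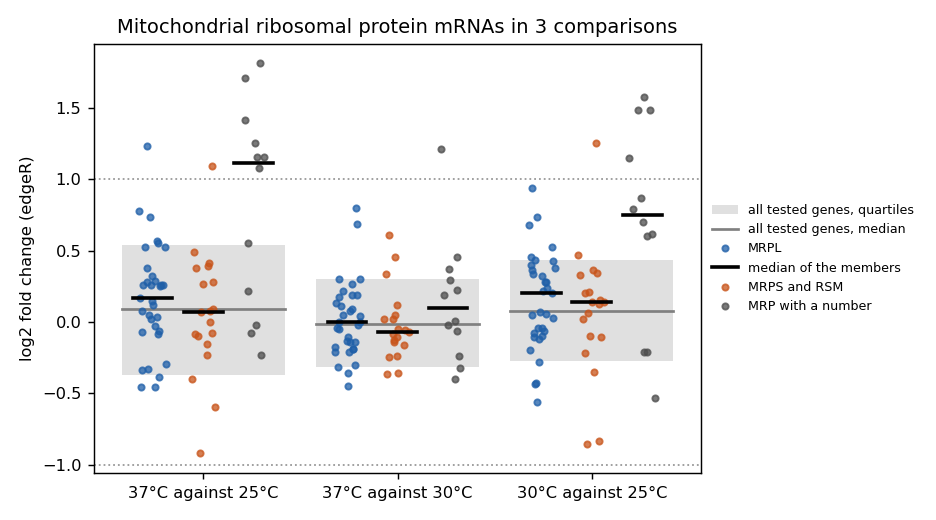
log2 fold change (edgeR) of each of the 64 tested members in each of the 3 comparisons, by symbol group, with black bars for the medians of the members and grey for the median and quartiles of all 5181 tested genes. Dotted lines mark 1 and -1. In 37°C against 30°C the medians of the 3 groups lie at 0.00, -0.07 and 0.10, and MRP49 alone is beyond 1.

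Set against growth at 30°C, the members at 37°C were centred on 0. None of the 64 was called by edgeR, where 0 of 5181 genes (0.0%) were called, and none passed an unadjusted p below 0.05, against 7.06% of all tested genes. limma-voom called none (0 of 5181 genes, 0.0%), and DESeq2 called none of the 64 members and 13 of 5181 genes (0.251%). The smallest adjusted p of a member in edgeR with Benjamini-Hochberg adjustment was 0.799, for RSM18. The median log2 fold change was -0.02, against -0.01 over all tested genes, with 30 members above 0 and 34 below. The interquartile range of the members was 0.349, against 0.616 for all tested genes. In 63 of 64 members the log2 fold change lay between -1 and 1 (92.1% of all tested genes did), and in 20 the 95% interval stayed within 2-fold (20.4% of all tested genes). The groups did not overlap for 10 members that were higher at 37°C (15.6%, against 24.3% of all tested genes) and 9 that were lower (14.1%, against 20.2%).

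In the same comparison MRPL35 had 61.8 and 92.8 CPM at 37°C, against 53.0 and 35.4 CPM at 30°C, a log2 fold change of 0.80 (SE 0.54). RSM18 had 78.9 and 65.7 CPM at 37°C, against 53.0 and 41.1 CPM at 30°C, a log2 fold change of 0.61 (SE 0.32). Neither gene had overlapping groups, and neither passed the test. MRPL11, of the family of the bacterial L10 stalk protein, had 34.1 and 41.3 CPM at 37°C, against 29.3 and 17.0 CPM at 30°C, a log2 fold change of 0.68 (SE 0.50). MRP49 had 12.8 and 27.2 CPM at 37°C, against 12.4 and 4.25 CPM at 30°C, a log2 fold change of 1.21 (SE 0.69). The groups of MRP49 did not overlap, but its nearest libraries at 37°C and 30°C differed by less than 1 CPM. RSM7 had 88.5 and 116 CPM at 37°C, against 85.7 and 76.5 CPM at 30°C, a log2 fold change of 0.34 (SE 0.32). RSM25, a mitochondria-specific small-subunit protein, had 17.1 and 22.5 CPM at 37°C, against 14.7 and 14.2 CPM at 30°C, a log2 fold change of 0.46 (SE 0.46). The groups of MRPL11, RSM7 and RSM25 did not overlap either.

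Of the members with a negative value against 30°C, MRPL8, the homologue of bacterial L17, was the lowest. It had 27.7 and 33.8 CPM at 37°C, against 49.6 and 34.0 CPM at 30°C, a log2 fold change of -0.45 (SE 0.52). The groups of MRPL8 did not overlap, but its nearest libraries at 37°C and 30°C were all but equal. MRP17, the homologue of bacterial S6, had 45.8 and 60.0 CPM at 37°C, against 92.5 and 46.7 CPM at 30°C, a log2 fold change of -0.40 (SE 0.47), and its groups overlapped. MRPL39 had 116 and 116 CPM at 37°C, against 118 and 180 CPM at 30°C, a log2 fold change of -0.36 (SE 0.33). MRPS18, the homologue of bacterial S11, had 125 and 130 CPM at 37°C, against 194 and 133 CPM at 30°C, a log2 fold change of -0.36 (SE 0.32). MRPL13, a mitochondria-specific large-subunit protein, had 111 and 122 CPM at 37°C, against 138 and 152 CPM at 30°C, a log2 fold change of -0.31 (SE 0.32). The groups of MRPL39, MRPS18 and MRPL13 did not overlap. In MRPL39 and MRPS18 the 30°C libraries differed more from each other than the nearer of them did from the 37°C libraries.

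**Figure D4:**
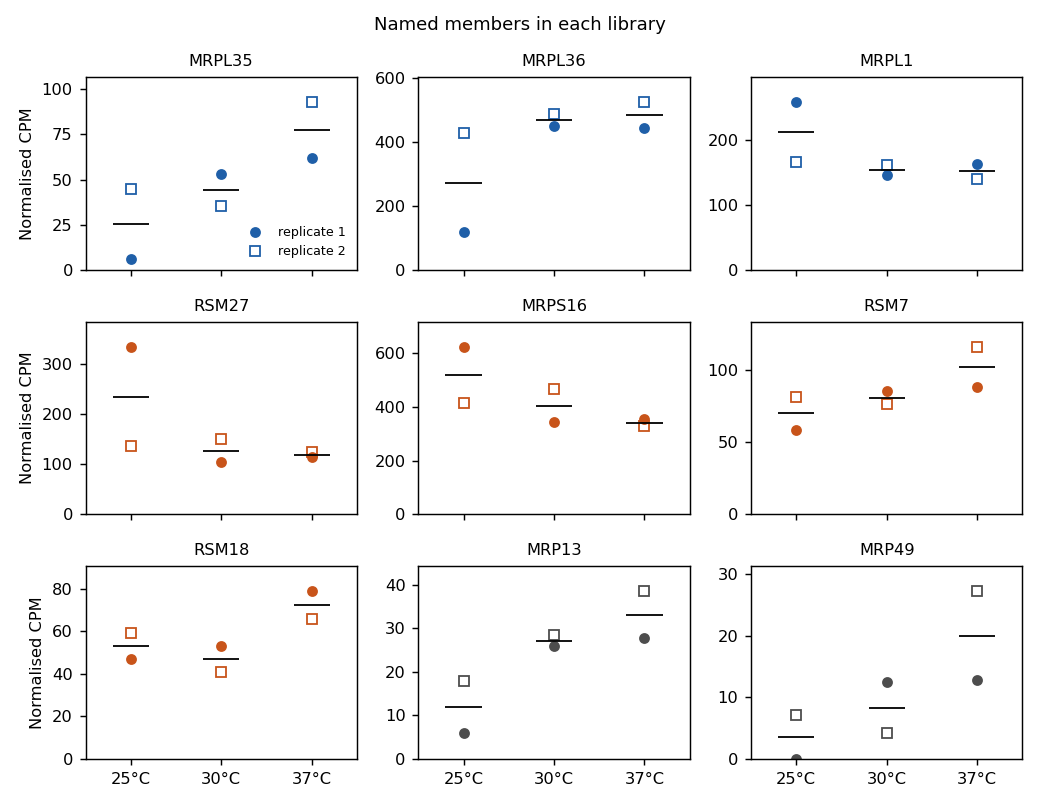
Normalised CPM of 9 of the members described above, in each library by temperature (filled circles replicate 1, open squares replicate 2, bars the mean of 2). The 37°C pairs lie close together for RSM27 (115 and 124 CPM) and MRPS16 (355 and 327 CPM), while the 25°C pairs of the same genes (335 and 136, and 623 and 413 CPM) lie far apart.

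Growth at 30°C was compared with growth at 25°C. No member was called by edgeR, limma-voom or DESeq2 (0 of 5181 genes, 0.0%, in each). No member passed an unadjusted p below 0.05 in edgeR, against 1.41% of all tested genes. The median log2 fold change was 0.20, against 0.08 over all tested genes, with 43 members above 0 and 21 below, and without the first 25°C library it was 0.01. In 59 of 64 members the log2 fold change lay between -1 and 1 (93.1% of all tested genes did), and in 19 the 95% interval stayed within 2-fold (18.1% of all tested genes). The groups did not overlap for 5 members that were higher at 30°C (7.81%, against 13.1% of all tested genes) and 6 that were lower (9.38%, against 10.4%). MRP4, the homologue of bacterial S2, had 18 and 8 counts at 30°C, against 0 and 6 counts at 25°C, a log2 fold change of 1.48 (SE 0.75, adjusted p = 0.889 in edgeR with Benjamini-Hochberg adjustment). MRP13 had 25.9 and 28.3 CPM at 30°C, against 5.88 and 17.8 CPM at 25°C, a log2 fold change of 0.87 (SE 0.50). The groups of MRP4 and MRP13 did not overlap. RSM27 had 104 and 150 CPM at 30°C, against 335 and 136 CPM at 25°C, a log2 fold change of -0.83 (SE 0.46), with overlapping groups. RSM25 had 14.7 and 14.2 CPM at 30°C, against 41.1 and 20.1 CPM at 25°C, a log2 fold change of -0.86 (SE 0.51), and its groups did not overlap. MRP2, the homologue of bacterial S14, had the highest value, 1.57 (SE 1.22), but its counts were 23 and 1 at 30°C, against 0 and 5 at 25°C, so the 30°C replicates lie on either side of the second 25°C library. The 3 comparisons share libraries, so the values of a gene in them are not independent.

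The spread between replicates of the members differed by temperature. The log2 ratio of replicate 1 to replicate 2, on CPM + 1, had a median of -0.75 at 25°C, 0.18 at 30°C and -0.10 at 37°C over the 64 tested members. Replicates differed by more than 2-fold in 29 members at 25°C (45.3%, against 36.2% of all tested genes), in 16 at 30°C (25.0%, against 16.1%) and in 1 at 37°C (1.56%, against 2.28%). For the MRP genes the medians were -2.66 at 25°C, 1.09 at 30°C and -0.36 at 37°C. In the 31 members with at least 10 counts in every library, the medians were -0.24 for the 25°C pair, -0.06 for the 30°C pair and 0.00 for the 37°C pair, and 5 members differed by more than 2-fold at 25°C (16.1%, against 23.8% of the 2818 genes with as many counts). None did at 30°C or 37°C, against 8.66% and 0.426% of those genes.

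Several members, chosen here after their values were seen, swung in opposite directions in the 25°C and 30°C pairs. MRP21, the homologue of bacterial S21, had 0 and 46 counts in 25°C cells, 121 and 18 in 30°C cells, and 68 and 98 in 37°C cells. RSM19, the homologue of bacterial S19, had 1 and 13 counts in 25°C cells, 50 and 3 in 30°C cells, and 29 and 27 in 37°C cells. MRPL38, the homologue of bacterial L14, had 0 and 26 counts in 25°C cells, 37 and 9 in 30°C cells, and 26 and 28 in 37°C cells. In all 3 the 37°C libraries lay between the 30°C replicates. In 35 of 64 members the first replicate was lower at 25°C and higher at 30°C, against 1932 of 5181 tested genes. The reverse held in 10 members and 1742 genes, so opposite swings were common in all tested genes too. Over the members the 2 ratios correlated at r = -0.58 (Spearman's rho = -0.61), against r = -0.51 over all tested genes. These values describe genes that share the same libraries. In the 31 members with at least 10 counts in every library r was -0.27, against -0.57 over the 2818 genes that pass the same minimum. The part of depth in this pattern was not tested.

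The replicates of some other members lay close together at each temperature. MRP7, the homologue of bacterial L27, had 341 and 388 CPM in 25°C cells, 296 and 337 CPM in 30°C cells, and 388 and 332 CPM in 37°C cells. MRPL37 had 388 and 378 CPM in 25°C cells, 371 and 341 CPM in 30°C cells, and 305 and 319 CPM in 37°C cells. MRPL22, the homologue of bacterial L22, had 188 and 222 CPM in 25°C cells, 179 and 181 CPM in 30°C cells, and 174 and 154 CPM in 37°C cells. MRPL37 and MRPL22 were lower without overlap at 37°C than at 30°C and at 25°C, and at 30°C than at 25°C, and MRP7 was lower without overlap at 30°C than at 25°C only. None of these passed the test. These 3 genes, likewise chosen after their values were seen, are among the better-counted members, with at least 32 counts in each library.

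**Figure D5:**
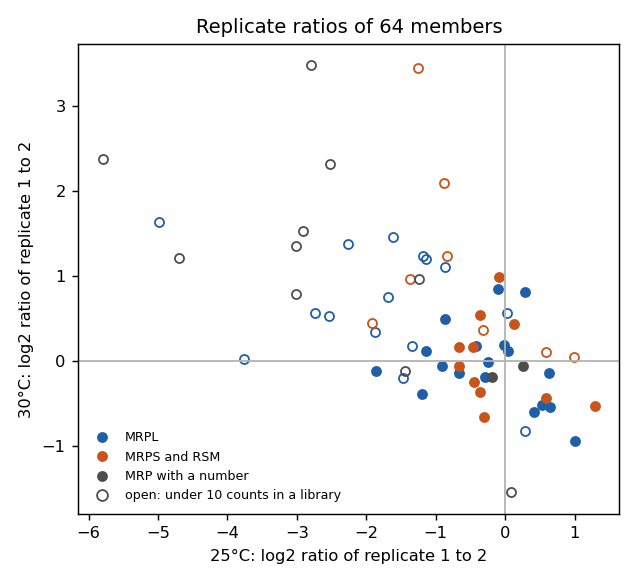
log2 ratio of replicate 1 to replicate 2 at 25°C (horizontal) and at 30°C (vertical) for the 64 tested members, on CPM + 1, coloured by symbol group. Open circles have under 10 counts in at least 1 library, and filled circles are the 31 members with at least 10 in each. The open circles spread to the upper left (r = -0.58 over all 64), while the filled ones lie closer to 0 (r = -0.27, against -0.57 over all 2818 genes with at least 10 counts in every library).

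The other genes of mitochondrial translation were set beside the members. None was called in any comparison by edgeR, where 0 of 5181 genes (0.0%) were called in each. The 13 other mitochondrial ribosomal proteins had medians of 0.42 for 37°C over 25°C, 0.05 for 37°C over 30°C and 0.20 for 30°C over 25°C. The 13 mitochondrial tRNA synthetases had medians of 0.43, 0.09 and 0.20 in the same order, the 17 tested translational activators 0.34, 0.17 and 0.03, and the 9 tested translation factors 0.34, 0.10 and 0.22. The 9 ribosome assembly and mitochondrial transcription factors had 0.30, 0.38 and 0.14. ISM1, the mitochondrial isoleucyl-tRNA synthetase, had 58 and 85 counts at 37°C, against 39 and 16 at 30°C, a log2 fold change of 1.07 (SE 0.43). MSR1, the mitochondrial arginyl-tRNA synthetase, had 79 and 77 counts at 37°C, against 35 and 23 at 30°C, a log2 fold change of 1.11 (SE 0.35, adjusted p = 0.587 in edgeR with Benjamini-Hochberg adjustment). MRM2, a methyltransferase of the large mitochondrial rRNA, had 61 and 65 counts at 37°C, against 37 and 20 at 30°C, a log2 fold change of 0.83 (SE 0.34). In these 3 genes, picked for a small p within their lists, the groups did not overlap. Of all tested genes, 24.3% were higher without overlap in that comparison.

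The respiratory chain and the cytosolic ribosome had other medians. The 30 tested nuclear respiratory chain and ATP synthase genes had medians of 0.32 for 37°C over 25°C, -0.15 for 37°C over 30°C and 0.64 for 30°C over 25°C. The 138 cytosolic ribosomal protein genes had medians of -0.22, -0.90 and 0.65 in the same order, and 136 of them were below 0 in 37°C against 30°C, where the mitochondrial members were 30 above 0 and 34 below. Without the first 30°C library the median of the cytosolic genes in that comparison was -0.18, with 87 below 0, and that of the members was 0.17. The other medians of the cytosolic genes also changed sign with the library left out. At 37°C against 25°C they ran from -0.78 without the first 25°C library to 0.87 without the second, and limma-voom gave 0.13. At 30°C against 25°C they ran from -0.18 without the first 30°C library to 1.64 without the second 25°C library. Counts of cytosolic ribosomal protein genes over counts of the members stood at 19.3 and 27.1 in 25°C cells, 36.8 and 21.3 in 30°C cells, and 16.4 and 16.4 in 37°C cells. The difference between the cytosolic and the mitochondrial list was not tested.

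Among genes outside the members, those with a Puf3 element (709 tested) had median log2 fold changes of 0.14 for 37°C over 25°C, 0.01 for 37°C over 30°C and 0.10 for 30°C over 25°C. Those without it (4244 tested) had medians of 0.07, -0.02 and 0.07 in the same order. The genes outside the members with the longer form CNTGTANATA (187 tested) had medians of 0.27, 0.10 and 0.11. The members stood at 0.19, -0.02 and 0.20. Of the members, 3 share bases with another annotated gene: MRPL51 (323 bases with YPR099C), MRPL19 (113 bases with YNL184C) and MRP4 (2 bases with YHL005C), so their counts are less certain, since it is not stated whether counting used strand.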

How the data were processed

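Total RNA was extracted from cryo-ground cells and sequenced by QuantSeq in 6 libraries, 2 per temperature. The authors deposited raw counts per gene, made with reads mapped to R64. The submitters' notes name UMI-tools 1.0.1, STAR 2.7.10a and HTSeq 2.0.2. For the pull-down libraries of the study, the methods describe UMI extraction and trimming, mapping, removal of PCR duplicates by UMI and counting in the intersection-nonempty mode, in that order. Whether these total RNA libraries were treated alike is not stated, nor is the strand setting, so duplicates may remain in the counts. A second table of size-factor normalized values, made with DESeq2 1.38.2, was not used. The table holds coding regions without untranslated regions. Of 6461 genes, 6458 were matched to the annotation. Summary entries (reads in no gene, 41.1% to 47.9% per library) were left out.

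After filterByExpr, 5181 genes were tested with the quasi-likelihood test of edgeR 4.0.16 (TMM, all 6 libraries, temperature as the factor), with Benjamini-Hochberg adjustment over all tested genes. DESeq2 1.42.0 and limma 3.58.1 (voom) were run on the same genes. CPM is a count over the TMM-scaled total of tested genes. The SE is the absolute log2 fold change over the square root of the F statistic. The interval is centred on the same log2 fold change. Members and lists were chosen with earlier results of these data known. Named members had the smallest p within a symbol group or the extreme fold change of a comparison, or did not pass the filter, and any other member named was chosen after its values were seen. The scripts were tested on simulated data. The software was R 4.3.3 and Python 3.11.15, with matplotlib 3.10.9, pandas 2.3.3 and numpy 2.4.6.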

Additional observations from a re-analysis of the deposited data

How the results depend on the processing

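No member was called under any alternative except 1. At 37°C against 25°C, few genes were called at all in the fits with all 6 libraries. With total counts in place of TMM 7 of 5181 genes were called, and without the filter on low counts 4 of 6153. Without the second 25°C library, edgeR called 3 members at 37°C against 25°C, where 364 genes were called: MRPL36 (log2 fold change 2.01), RSM27 (-1.52) and MRPL9 (3.87). That fit tested 5326 genes. The only 25°C value behind these calls is the shallow first library, and with 1 library its spread is assumed like that of the other groups. Without the first 25°C library instead, MRPL36 was at 0.14 and RSM27 at -0.22. Leaving out each library in turn gave 0 to 3 members called at 37°C against 25°C and 0 in the other comparisons. The medians of the members ranged from -0.07 to 0.64 at 37°C against 25°C, -0.11 to 0.17 at 37°C against 30°C and -0.13 to 0.69 at 30°C against 25°C. The median of MRPL minus that of MRPS and RSM genes ranged from 0.044 to 0.56, -0.14 to 0.081 and 0.054 to 0.47 in the same comparisons; by limma-voom it was 0.18 at 37°C against 25°C. MRP17 at 37°C against 30°C ranged from -0.80 to 0.15 and MRP2 at 30°C against 25°C from -1.66 to 6.49, with the sign turned without the first 30°C library. With total counts in place of TMM, the median of the members at 37°C against 30°C was 0.23, and that of all genes also 0.23 (0.33 at 37°C against 25°C, members 0.43). With a replicate block, no member was called, where 0 of 5181 genes were called at 37°C against 25°C. The medians of the members were then 0.23, 0.00 and 0.23. Deviations of same-numbered libraries correlated at -0.53 (25°C and 30°C), 0.28 (25°C and 37°C) and -0.40 (30°C and 37°C). With 2 libraries per temperature these values also take in library-wide differences. Whether the numbers pair the samples cannot be told from them. A crossed block, added after seeing the data, called 0 members, and 10 of 5181 genes at 37°C against 25°C. The cause of these shifts was not tested.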

Other observations

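Splitting the members by origin rather than by symbol, the shares of gene counts of the 41 homologues of bacterial ribosomal proteins were 0.309% and 0.412% in 25°C cells, 0.385% and 0.407% in 30°C cells, and 0.454% and 0.472% in 37°C cells. The 25 mitochondria-specific proteins took 0.190% and 0.226% in 25°C cells, 0.218% and 0.225% in 30°C cells, and 0.245% and 0.265% in 37°C cells. MRP35, the homologue of bacterial L35, had 0 and 4 counts in 25°C cells, 16 and 2 in 30°C cells, and 8 and 18 in 37°C cells. Of the 8 proteins encoded by the mitochondrial genome, whose mRNAs are the templates of these ribosomes, only ATP6 and COX2 had enough counts to be tested. ATP6 had 24 and 89 counts in 25°C cells, 59 and 64 in 30°C cells, and 81 and 60 in 37°C cells, in libraries of unlike depth. The 8 genes together took 0.0190% and 0.0155% of gene counts in 25°C cells. They took 0.0097% and 0.0124% in 30°C cells, and 0.0167% and 0.0106% in 37°C cells. How well reads taken next to poly(A) tails capture mitochondrial mRNAs was not tested, so these values cannot be read as levels of the templates.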
